A study of Mus musculus with 25 samples.

Results

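Gene expression at 6 weeks after bleomycin was compared between Lin- lung cells of Fas-/- and Fas+/+ mice. The Lin- gate excluded cells with CD45, CD31 or CD326 on their surface, which mark leukocytes, endothelium and epithelium. The 8 bulk RNA-seq libraries labelled as harvested at week 6 were taken by their labels, 4 from Fas-/- and 4 from Fas+/+ mice, of 20 bulk libraries and 25 samples in all. Both groups carried Col1a1-Cre-ERT2 and floxed Fas alleles (Fas fl/fl) and received intratracheal bleomycin. Mice called Fas-/- were injected with tamoxifen and mice called Fas+/+ with the corn oil vehicle, from the first week until week 3, so the deletion of Fas and exposure to tamoxifen cannot be told apart. Cre was driven by the Col1a1 promoter, and cells that did not use this promoter during the injections keep Fas. The other bulk libraries, which share the estimate of spread, came from naive mice of the same Col1-CreERT2;Fas fl/fl line and from both genotypes at 3 weeks. The labels do not tie libraries to animals, while the study's methods count replicates as individual animals.

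Fas is a death receptor of the tumor necrosis factor receptor family. When it is bound by its ligand, the adaptor Fadd and caspase 8 are recruited through its intracellular death domain, and the cell enters apoptosis. Bleomycin injures the alveolar epithelium and is followed in mice by an expansion of matrix-producing fibroblasts that later resolves, and apoptosis of fibroblasts is 1 way in which they are lost. Lung fibroblasts make fibrillar collagens and elastin, and they lie next to the alveolar epithelium, with which they exchange Wnt and growth factor signals.

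The floxed part of Fas is exon 9, the last of 9 exons (chr19:34326993-34327772, GRCm38, plus strand). Its coding part ends at position 34327324 and holds 332 bases with the stop codon, which is 33.7% of the coding sequence of this transcript. Its last 300 bases are given from the GENCODE M21 transcript, with the stop codon in capitals, because a transcript that lacks only this exon is still counted as Fas.

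Fas exon 9, end of the coding part: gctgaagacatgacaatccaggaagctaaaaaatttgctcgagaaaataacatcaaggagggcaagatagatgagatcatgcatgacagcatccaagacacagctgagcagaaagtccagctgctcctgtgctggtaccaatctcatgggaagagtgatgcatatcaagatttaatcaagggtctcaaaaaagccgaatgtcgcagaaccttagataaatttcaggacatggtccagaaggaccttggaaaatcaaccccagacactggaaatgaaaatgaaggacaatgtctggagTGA

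Fas (ENSMUSG00000024778) was counted over all exons, so its level does not check the deletion. Fas was at 26.2, 32.7, 39.7 and 27.1 CPM (counts scaled to a common library size) in Fas+/+ replicates 1 to 4 and at 35.6, 46.6, 39.1 and 40.3 CPM in Fas-/- replicates 1 to 4. The groups overlapped, since Fas+/+ replicate 3 lay above Fas-/- replicates 1 and 3. The difference was 0.36 ± 0.20 on the log2 scale (SE, n = 4 and 4, adjusted p = 0.719 by edgeR). In the single-cell libraries described below, Fas went against this direction, at a ratio of 0.669 (0.634 to 0.705). In the cells there with none of the sort markers, its ratio was 1.03 (0.964 to 1.11).

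Total counts of the 8 libraries ran from 17655597 to 24045888. The label Fibroblast was checked by Col1a1, which ran from 3940 to 8030 CPM, Pdgfra, from 1420 to 2030 CPM, and Dcn, from 951 to 1520 CPM. RNA of sorted-out cells remained. Ptprc, which encodes CD45, was between 0.0564 and 4.37 CPM, Epcam, which encodes CD326, between 0.522 and 5.17 CPM, and Pecam1, which encodes CD31, between 9.29 and 465 CPM. Xist, transcribed from the inactive X chromosome, and the Y-linked Ddx3y were both present in 3 libraries, at 120 and 48.4 CPM in Fas+/+ replicate 4, 580 and 7.17 CPM in Fas-/- replicate 2 and 142 and 51.5 CPM in Fas-/- replicate 4. Fas-/- replicate 1 had 2.51 CPM of Xist and 55.4 CPM of Ddx3y, and the other 4 libraries had 635 to 720 CPM of Xist and at most 2.10 CPM of Ddx3y. The libraries thus differed in their amounts of male and female RNA. Whether a library with both transcripts came from 1 animal is not settled by the labels, so n counts libraries here.

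Among 15773 genes tested, Fas-/- cells differed from Fas+/+ cells at 6 weeks in 8, of which 4 rose and 4 fell, at an adjusted p of 0.05 or less (edgeR quasi-likelihood F test with Benjamini-Hochberg adjustment). These 8 genes are 0.0507% of the genes tested, 0.0254% in each direction. At an unadjusted p of 0.05 or less, 618 genes (3.92%) were higher and 655 (4.15%) lower. The genes that rose were Stox2, Phex, Zswim6 and Hmcn1, and the genes that fell were Tmem37, Gp5, Slc25a25 and Abca5. Every library of one group lay beyond every library of the other for each of the 8, which was also the case for 3.47% of all genes tested in the higher and 3.33% in the lower direction. The exact permutation p (two-sided) was 0.0286 for each, the smallest that 70 arrangements of 4 against 4 libraries allow. The 8 genes were picked by small p on these same libraries, so neither the lack of overlap nor this permutation p is separate evidence. In bulk libraries, fewer cells of a type and less RNA per cell cannot be told apart.

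**Figure D1:**
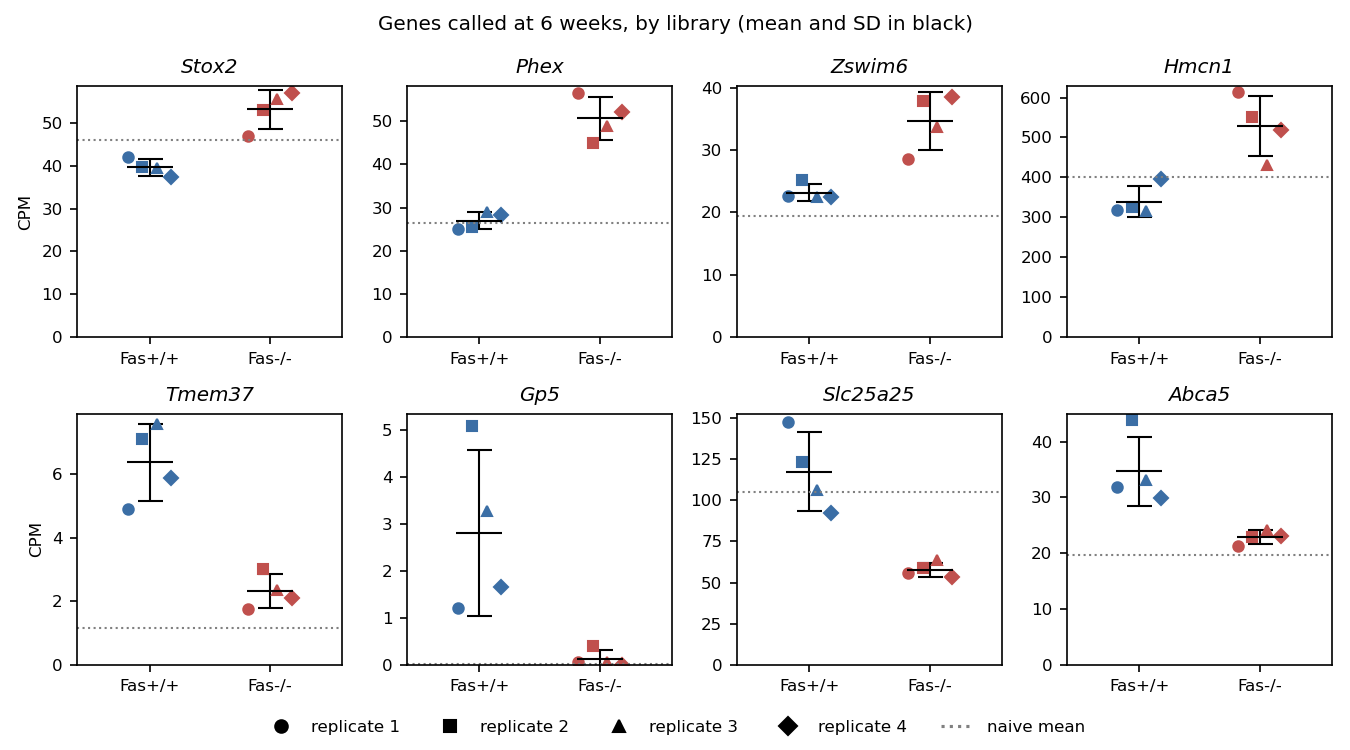
Expression (CPM, vertical axis from 0) of the 8 called genes in each library of Fas+/+ (blue) and Fas-/- mice (red) at 6 weeks. Marker shapes are replicates, black bars the mean and SD over 4 libraries, and the dotted line the mean of the 4 naive libraries. The groups do not overlap for any of these genes, and for Tmem37, Gp5 and Abca5 the Fas-/- group lies nearer the naive mean.

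Of the genes that rose, Stox2 encodes a storkhead-box protein with a winged-helix domain. It was at 42.0, 39.6, 39.6 and 37.3 CPM in Fas+/+ replicates 1 to 4 and at 46.9, 53.1, 55.6 and 56.9 CPM in Fas-/- replicates 1 to 4. The ranges were close, with the lowest Fas-/- library just above the highest Fas+/+ library. The difference was 0.42 ± 0.06 on the log2 scale (SE, adjusted p = 0.0275 by edgeR), and the naive mean, 46.0 CPM, lay between the groups.

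Phex encodes an endopeptidase-like membrane protein best known from phosphate handling and mineralization, and lies on the X chromosome. Its levels were 25.1, 25.4, 29.01 and 28.4 CPM in Fas+/+ replicates 1 to 4 and 56.6, 45.0, 48.9 and 52.3 CPM in Fas-/- replicates 1 to 4. All Fas-/- libraries stood well above the Fas+/+ libraries, whose mean was near that of naive mice, 26.5 CPM. The difference was 0.91 ± 0.15 on the log2 scale (SE, adjusted p = 0.0338 by edgeR). At 3 weeks, in libraries that share none with those of week 6, the genotype difference of Phex was 0.79 ± 0.15 (SE, adjusted p = 0.0397 by edgeR), a comparison in which 0.171% of genes were called.

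Zswim6 encodes a SWIM-type zinc finger protein. It was at 22.6, 25.2, 22.5 and 22.5 CPM in Fas+/+ and at 28.6, 38.0, 33.8 and 38.5 CPM in Fas-/- libraries, again without overlap. The difference was 0.58 ± 0.10 (SE, adjusted p = 0.0371 by edgeR). Both genotypes were higher at 3 weeks, with means of 45.3 CPM each and a genotype difference of -0.0017.

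Hmcn1 encodes hemicentin 1, a very large extracellular matrix protein of the fibulin family. It was at 317.9, 325.2, 317.1 and 397.0 CPM in Fas+/+ and at 613.3, 552.1, 430.9 and 519.1 CPM in Fas-/- libraries. The highest Fas+/+ library, replicate 4, lay under the lowest Fas-/- library, replicate 3. The difference was 0.64 ± 0.11 (SE, adjusted p = 0.0371 by edgeR). The naive mean was 401.3 CPM, and at 3 weeks the means were 628.5 (Fas+/+) and 563.2 CPM (Fas-/-).

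Of the genes that fell, Tmem37 encodes a small membrane protein related to calcium channel gamma subunits. It was at 4.92, 7.10, 7.59 and 5.89 CPM in Fas+/+ and at 1.77, 3.02, 2.37 and 2.11 CPM in Fas-/- libraries. The difference was -1.46 ± 0.23 (SE, adjusted p = 0.0338 by edgeR), and no Fas-/- library reached the lowest Fas+/+ library. Naive libraries had a mean of 1.17 CPM.

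Gp5 encodes glycoprotein V, a subunit of the platelet receptor for von Willebrand factor. It was at 1.21, 5.09, 3.27 and 1.66 CPM in Fas+/+ and at 0.0522, 0.410, 0.0564 and 0 CPM in Fas-/- libraries. These are 250 counts over the 4 Fas+/+ and 10 counts over the 4 Fas-/- libraries. The difference was -4.37 ± 0.70 (SE, adjusted p = 0.0338 by edgeR). In naive mice the mean was 0.0200 CPM, and at 3 weeks the means were 1.20 (Fas+/+) and 1.58 CPM (Fas-/-).

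Slc25a25 encodes a calcium-dependent carrier that exchanges adenine nucleotides and phosphate across the inner mitochondrial membrane. It was at 147.9, 123.0, 106.5 and 92.4 CPM in Fas+/+ and at 55.8, 58.8, 63.5 and 53.5 CPM in Fas-/- libraries. The Fas-/- libraries lay close together and below every Fas+/+ library. The difference was -1.02 ± 0.17 (SE, adjusted p = 0.0338 by edgeR). Here the Fas-/- libraries also differed from naive libraries, whose mean was 104.9 CPM, by -0.86 (adjusted p = 0.00565 by edgeR, in a comparison in which 6.48% of genes were called).

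Abca5 encodes an ATP-binding cassette transporter of lysosomal and endosomal membranes. It was at 31.9, 43.8, 33.2 and 29.96 CPM in Fas+/+ and at 21.3, 22.9, 24.2 and 23.2 CPM in Fas-/- libraries. The difference was -0.60 ± 0.10 (SE, adjusted p = 0.0371 by edgeR). Fas+/+ libraries were above naive libraries by 0.82 (adjusted p = 1.56e-04 by edgeR, in a comparison in which 5.31% of genes were called), and the naive mean was 19.7 CPM.

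The number of calls depended on single libraries and on the fit. In edgeR on the 8 libraries of week 6 alone, 1 gene was called. None of the 8 genes remained called without Fas+/+ replicate 2, Fas+/+ replicate 3, Fas-/- replicate 3 or Fas-/- replicate 4. Without Fas+/+ replicate 1, 1 gene was higher and 19 were lower, without Fas+/+ replicate 4, 2 and 6, without Fas-/- replicate 1, 2 and 0, and without Fas-/- replicate 2, 1 and 4. DESeq2 called 50 higher (0.317%) and 120 lower (0.761%), and limma voom with quality weights called 111 higher (0.704%) and 140 lower (0.888%). In simulated data 12.5% of DESeq2 calls were false, against 4.03% for edgeR and 2.78% for limma voom. The simulation drew each gene independently, with the same spread in every library and no shift in cell makeup. These shares may therefore not hold for the real calls. The direction of each of the 8 genes was the same in all of these fits.

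The fit shares its estimate of spread with the other groups, and 2 libraries of week 3, Fas+/+ replicate 1 and Fas-/- replicate 4, had the lowest quality weights of that week in limma (0.14 and 0.18). Their total counts were 20056492 and 19856124. The 8 matrix genes named by the study summed to 8148 CPM in this Fas+/+ library and to 23730 to 31250 CPM in the others of its group. They summed to 14390 CPM in this Fas-/- library and to 22440 to 27390 CPM in the others of its group. Why these libraries stood apart was not tested, and means of week 3 given here include them. Without these 2 libraries, an alternative chosen after seeing the data, edgeR called 114 genes higher (0.715%) and 106 lower (0.664%) at 6 weeks. All 8 genes above were among them. DESeq2, limma voom and this fit shared 104 genes, 36 higher (0.228%) and 68 lower (0.431%). Among the 36 were Eln (elastin), Bmf (a BH3-only member of the BCL2 family), Trp53inp1 (a p53 target), Mxd4 (a dimerization partner of Max) and the cell-surface proteins Tenm4 and Epha3. Among the 68 were Cldn18, Aqp5, Foxa1, Scnn1a, Lamb3 and Dsp, genes of epithelial junctions, channels and identity, and the Wnt genes Wnt10b, Wnt7a and Fzd5.

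**Figure D2:**
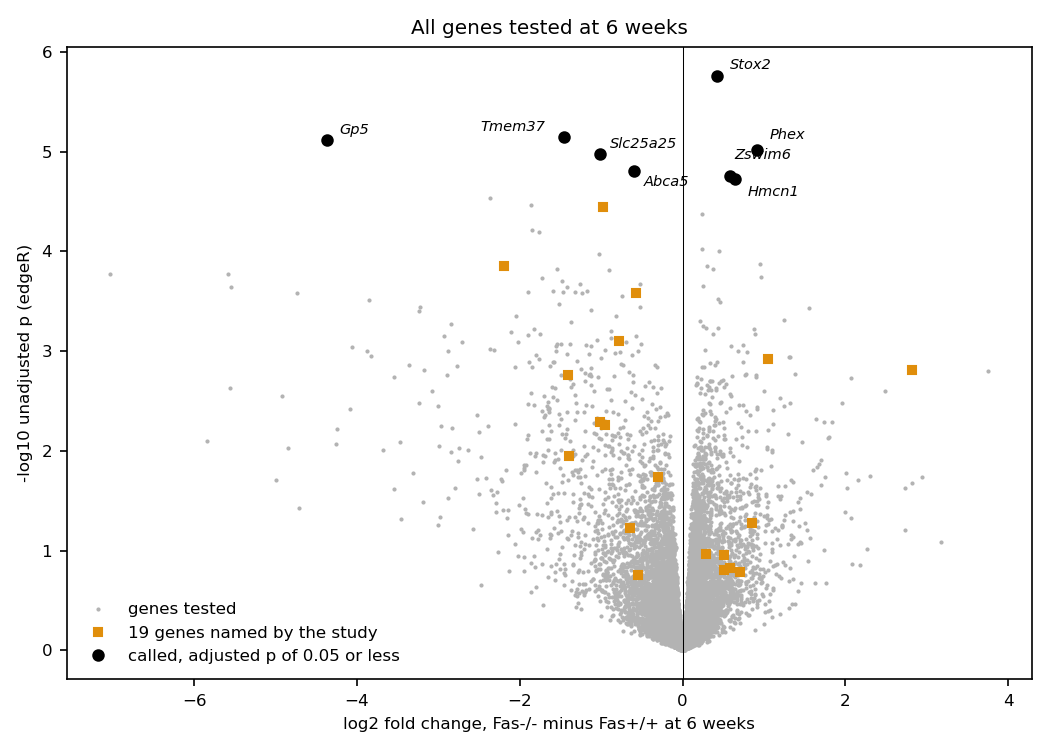
Log2 fold change of Fas-/- against Fas+/+ cells at 6 weeks (horizontal axis) and -log10 of the unadjusted p by edgeR (vertical axis) for the 15773 genes tested, each a grey point. Black points are the 8 called genes and orange squares the 19 genes that the study names for this comparison. None of the orange squares is a called gene.

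The promoters of the called genes are shown for Gp5 and Hmcn1, the blood cell gene with the largest difference and the matrix gene. The 250 bases before the start of each are from RefSeq (GRCm38.p6), both on the minus strand, at chr16:30310782-30311031 and chr1:150993436-150993685. All 8 genes had a promoter in the table, and 4 motifs were searched on both strands. A motif of GATA factors, with the letters AGATAA, occurred 2 times before Gp5, before none of the other called genes, and in 9.99% of 32851 promoters. The letters GGAATG, a TEAD motif, occurred before Hmcn1 and Slc25a25 and in 12.6% of promoters. The letters TGANTCA, an AP-1 motif, occurred before Tmem37 and in 6.75% of promoters, and CTTTGAT, a TCF/LEF motif, occurred before none of the 8 and in 3.21% of promoters. No matches overlapped. Capitals mark the GATA matches in Gp5 and the TEAD match in Hmcn1, all of which read on the opposite strand. A match is a description of the letters only.

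Gp5: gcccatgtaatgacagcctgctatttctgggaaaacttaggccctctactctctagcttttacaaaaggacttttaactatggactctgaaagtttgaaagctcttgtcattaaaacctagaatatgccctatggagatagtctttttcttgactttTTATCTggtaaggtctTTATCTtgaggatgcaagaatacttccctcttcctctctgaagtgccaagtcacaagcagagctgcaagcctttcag
Hmcn1: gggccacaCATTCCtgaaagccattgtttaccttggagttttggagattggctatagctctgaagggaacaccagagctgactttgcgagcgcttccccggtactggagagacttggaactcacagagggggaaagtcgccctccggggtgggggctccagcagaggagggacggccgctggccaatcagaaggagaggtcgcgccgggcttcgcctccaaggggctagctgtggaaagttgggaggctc

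Beyond the called genes, the next genes by p were taken up to 15 in each direction. Their adjusted p by edgeR was between 0.0511 and 0.12, and the groups did not overlap for any of the 22. They were picked by p on these libraries, so the lack of overlap is not separate evidence. In the higher direction, Nnat, which encodes the proteolipid neuronatin, had the largest difference, 1.55 ± 0.35 (SE, adjusted p = 0.12). Its levels were 10.7, 16.98, 10.6 and 25.2 CPM in Fas+/+ and 73.3, 45.0, 27.3 and 40.0 CPM in Fas-/- libraries. Bmf was at 25.8, 27.1, 19.2 and 23.97 CPM in Fas+/+ and at 65.4, 38.3, 38.1 and 43.9 CPM in Fas-/- libraries (log2 difference 0.95 ± 0.20, SE, adjusted p = 0.101). Bmf encodes a proapoptotic protein that is held on the cytoskeleton. Tenm4, a teneurin, differed by 0.97 ± 0.21 and Trp53inp1 by 0.45 ± 0.09 (SE, adjusted p = 0.101 and 0.0984).

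In the lower direction, Itgb6, the epithelial partner of the alpha v integrin that activates latent TGF-beta, was at 16.95, 38.0, 30.5 and 20.4 CPM in Fas+/+ and at 5.22, 9.38, 12.0 and 4.52 CPM in Fas-/- libraries (log2 difference -1.77 ± 0.34, SE, adjusted p = 0.0715). Sema3e, a secreted semaphorin, was at 37.1, 75.7, 50.3 and 36.7 CPM in Fas+/+ and at 8.88, 21.3, 23.3 and 14.9 CPM in Fas-/- libraries. Igfbp2, an insulin-like growth factor binding protein, was at 112.3, 192.5, 145.2 and 120.0 CPM in Fas+/+ and at 52.9, 80.8, 79.6 and 65.4 CPM in Fas-/- libraries. In each of these 3 genes Fas+/+ replicate 2 was the highest library and Fas-/- replicates 1 and 4 were the lowest. Cd226, an adhesion receptor of lymphocytes and platelets, had 81 and 1 counts, a ratio of 0.0138 with a counting interval of 0.000344 to 0.0789.

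The study names 8 matrix genes as higher in Fas-/- cells at 6 weeks, and 11 genes as higher in Fas+/+ cells. These were chosen on the same libraries, so their direction is not independent evidence. None of the 19 was called by edgeR, against 0.0507% of all genes. DESeq2 called 2 of the 8 higher and 5 of the 11 lower, against 0.317% and 0.761% of all genes. Limma voom called 1 and 5, against 0.704% and 0.888%. All 8 matrix genes had a higher fitted level in Fas-/- cells (median log2 difference 0.64), compared with 49.7% of all genes tested, and 7 did not overlap between the groups, against 3.47% of all genes. All 11 of the other list had a lower fitted level (median -0.95), compared with 50.3% of all genes, and none overlapped, against 3.33% of all genes. The median over all genes was -0.0011.

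Among the matrix genes, Col1a1, which encodes a chain of type I collagen, was at 3940, 3990, 4340 and 4660 CPM in Fas+/+ and at 8030, 5620, 4790 and 6800 CPM in Fas-/- libraries. The lowest Fas-/- library, replicate 3, was near the highest Fas+/+ library, replicate 4. The difference was 0.58 ± 0.38 (SE, adjusted p = 0.828 by edgeR).

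Eln, which encodes the core protein of elastic fibers, was at 2902, 2511, 2620 and 3551 CPM in Fas+/+ and at 8556, 5474, 4247 and 5771 CPM in Fas-/- libraries, a difference of 1.05 ± 0.27 (SE, adjusted p = 0.174 by edgeR). Col11a1, a minor fibrillar collagen, was at 1.45, 1.56, 0.893 and 6.70 CPM in Fas+/+ and at 25.6, 17.6, 6.55 and 24.3 CPM in Fas-/- libraries. It was the gene of the 8 that overlapped, since Fas+/+ replicate 4 lay just above Fas-/- replicate 3, and it differed by 2.82 ± 0.76 (SE, adjusted p = 0.188). At 3 weeks its means were 28.3 (Fas+/+) and 16.6 CPM (Fas-/-). In all 8 matrix genes Fas-/- replicate 3 was the lowest Fas-/- library, and the summed level of the 8 ran from 9160 to 11400 CPM in Fas+/+ and from 12300 to 20900 CPM in Fas-/- libraries. In naive libraries this sum ran from 8890 to 16000 CPM, a range that overlaps both groups. Without the 2 libraries of week 3, Col11a1, Eln and Col8a1 were called (adjusted p = 0.0200, 0.0291 and 0.0327 by edgeR).

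Of the 11 genes named as higher in Fas+/+ cells, Wnt10b, a ligand of the canonical Wnt pathway, came closest to a call. It was at 6.17, 8.57, 7.09 and 5.34 CPM in Fas+/+ and at 3.13, 3.33, 4.29 and 3.00 CPM in Fas-/- libraries (log2 difference -0.98 ± 0.18, SE, adjusted p = 0.0512 by edgeR). Wnt7a, a Wnt ligand, was at 5.21, 11.2, 8.53 and 6.90 CPM in Fas+/+ and at 0.731, 2.77, 2.77 and 0.688 CPM in Fas-/- libraries (-2.20 ± 0.46, SE, adjusted p = 0.101). The Wnt receptor Fzd5 differed by -0.57 ± 0.13, the integrin Itgb3 by -0.78 ± 0.19, and the receptor tyrosine kinase Erbb3 by -0.95 ± 0.30 (SE, adjusted p = 0.101, 0.166 and 0.295). Without the 2 libraries of week 3, Wnt10b, Wnt7a, Fzd5, Epb41l4b, Itgb3 and Rspo4 were called (adjusted p between 0.0191 and 0.0464 by edgeR).

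**Figure D3:**
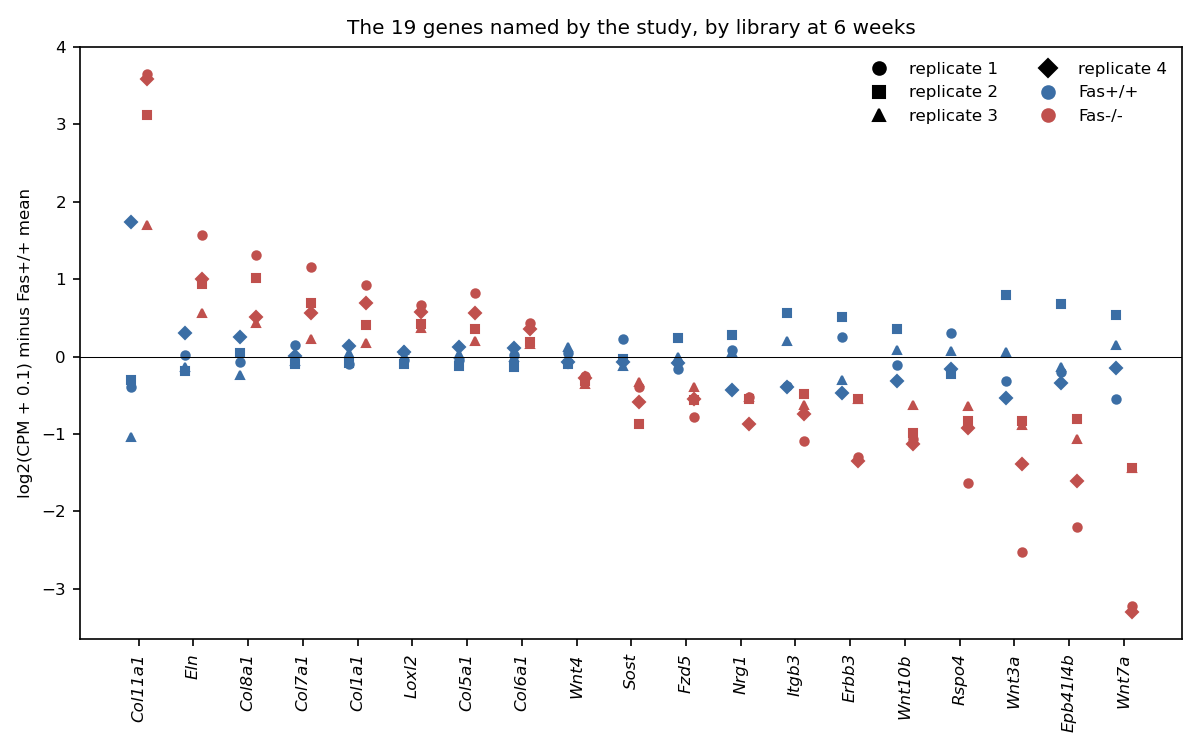
Level of the 19 genes named by the study in each library at 6 weeks, as log2(CPM + 0.1) minus the mean of the 4 Fas+/+ libraries (vertical axis, 0 at that mean). Fas+/+ libraries are blue, Fas-/- libraries red, and shapes are replicates. The 8 matrix genes on the left lie above 0 in Fas-/- libraries and the 11 other genes below 0, and Col11a1 shows the overlap of Fas+/+ replicate 4 with Fas-/- replicate 3.

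Matrix genes were followed further in lists written for lung fibroblasts. Members called in these lists are by edgeR over the 20 libraries unless another fit is named. Of all genes tested, 49.7% were higher and 3.47% were higher without overlap. By edgeR 0.0254% were called in each direction. DESeq2 called 0.317% higher and 0.761% lower, and limma voom 0.704% and 0.888%. The fit without the 2 libraries of week 3 called 0.715% higher and 0.664% lower. The same shares apply to the lists of the next paragraphs. Of 11 fibrillar collagen genes tested, 10 were higher (median 0.58) and 7 did not overlap, against 3.47% of all genes, but none was called. Their summed level ran from 15400 to 18400 CPM in Fas+/+, from 19100 to 30700 CPM in Fas-/- and from 15000 to 27300 CPM in naive libraries. DESeq2 called 1 of these 11 genes, limma voom 0, and edgeR without the 2 libraries of week 3 called 3 (Col11a1, Col24a1 and Col5a2). Col24a1, a minor fibrillar collagen, differed by 1.47 ± 0.49 (SE, adjusted p = 0.340 by edgeR). Of 29 other collagen genes 17 were higher (median 0.09, and 0.02 to 0.19 without single libraries) and none was called. DESeq2 called 1 lower, limma voom 1 higher and 1 lower, and the fit without the 2 libraries of week 3 called 3 higher and 1 lower. Col4a3, a basement membrane collagen chain of the alveolus, ran the other way, from 110.7 to 235.1 CPM in Fas+/+ and from 29.3 to 89.1 CPM in Fas-/- libraries. Of 22 basement membrane genes 16 were higher (median 0.19), with Hmcn1 called, while the laminin chain Lamb3 differed by -1.38 ± 0.35 (SE, adjusted p = 0.166). DESeq2 and limma voom each called 1 of the 22 higher and 2 lower. The fit without the 2 libraries of week 3 called 1 higher and 1 lower. Transcripts of Col4a3 and Lamb3 lay mostly in cells with Epcam in the single-cell libraries described below (67.7% and 65.4% in Fas+/+). Among 35 proteases and inhibitors, 20 were higher and none called, while DESeq2 called 1 lower, limma voom 2 higher and 1 lower, and the fit without the 2 libraries of week 3 called 3 higher and 1 lower. The collagenolytic enzymes Mmp2 and Ctsk differed by 0.70 ± 0.21 and 1.11 ± 0.35 (SE, adjusted p = 0.247 and 0.295). Of 39 matricellular genes and glycoproteins 30 were higher (median 0.18, and 0.10 without Fas-/- replicate 4 or 0.12 without Fas+/+ replicate 3) and none called, by DESeq2 and limma voom as well, while the fit without the 2 libraries of week 3 called 3 higher. Of 19 elastic fiber genes 12 were higher (median 0.04) and of 33 genes of collagen modification and crosslinking 22 (median 0.07), with none called. DESeq2 and limma voom each called 1 elastic fiber gene higher and no crosslinking gene, and the fit without the 2 libraries of week 3 called 2 higher in each list.

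Genes that mark profibrotic fibroblasts were higher in 11 of 14 cases (median 0.54), 6 without overlap, against 3.47% of all genes, and none was called by edgeR, DESeq2 or limma voom. Without the 2 libraries of week 3, edgeR called 4 of them (Tnc, Ltbp2, Cthrc1 and Grem1). Cthrc1, a secreted protein of injured stroma, was at 1.57, 3.57, 1.98 and 8.16 CPM in Fas+/+ and at 18.1, 15.5, 7.85 and 11.4 CPM in Fas-/- libraries (log2 difference 1.80 ± 0.59, SE, adjusted p = 0.326 by edgeR). Grem1, a BMP antagonist, was at 3.03, 4.79, 3.52 and 16.01 CPM in Fas+/+ and at 45.1, 22.9, 19.4 and 21.5 CPM in Fas-/- libraries (2.00 ± 0.76, SE, adjusted p = 0.440). In both genes, as in Col11a1, Fas+/+ replicate 4 stood above the other Fas+/+ libraries. In the single-cell libraries described below, Cthrc1 went against the bulk direction, at a ratio of 0.939 (0.898 to 0.981). Grem1 went with it, at 1.47 (1.39 to 1.56). Its ratio was 1.18 (1.11 to 1.26) in cells with none of the sort markers and 1.06 over all barcodes, without the cell filter. Contractile genes were mostly lower in bulk, with 16 of 21 lower (median -0.26) and none called. Of these, Cnn1 and Actc1 were higher in the Fas-/- single-cell library, at 1.31 (1.23 to 1.39) and 1.75 (1.67 to 1.82). Of lipofibroblast markers 8 of 15 were higher and of adventitial markers 5 of 15, with none called.

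No gene of the death receptor pathway passed the test, with 10 of 20 higher and 10 lower (median -0.0067). Of 20 BCL2 family and IAP genes 11 were higher, with the proapoptotic Bcl2l11 at 0.37 ± 0.22 (SE, adjusted p = 0.782 by edgeR). This list mixes pro- and antiapoptotic members, so its direction has no single meaning for survival. None was called by edgeR, and Bmf was the member called by DESeq2, limma voom and the fit without the 2 libraries of week 3. In the single-cell libraries described below, Bmf and Bcl2l11 went against the bulk direction, with ratios of 0.812 (0.678 to 0.972) and 0.66 (0.588 to 0.741). Of 20 p53 targets 14 were higher (median 0.11), and of 35 proliferation genes 27 were lower (median -0.27), with none called in either list by edgeR. Trp53inp1 was the p53 target called by DESeq2 and limma voom, the fit without the 2 libraries of week 3 called 2, and none of these 3 fits called a proliferation gene. Of 28 interferon-stimulated genes 25 were lower (median -0.23) and none was called. Rsad2, Irf7 and Bst2, members of this list, went against the bulk direction in the single-cell libraries described below. Their ratios were 1.55 (1.32 to 1.81), 2.02 (1.87 to 2.17) and 1.27 (1.24 to 1.31). In the cells there with none of the sort markers, these ratios were 3.11, 1.93 and 1.67. The other members of the list were not compared there. At 3 weeks, in other bulk libraries, all 28 genes had a higher fitted level in Fas-/- cells (median 0.88). Of 24 genes of cholesterol synthesis 23 were lower (median -0.34), of 30 chemokine and acute-phase genes 21 were lower (median -0.19), and none was called by edgeR. The 3 alternative fits called Icam1 alone among the chemokine and acute-phase genes. Without Fas+/+ replicate 3 the medians of the interferon, cholesterol and chemokine lists were -0.06, -0.09 and -0.12. The median of the proliferation list was -0.14 without Fas+/+ replicate 2, and that of the interferon list -0.40 without Fas+/+ replicate 1. Icam1, an adhesion receptor for leukocytes, was from 297.0 to 484.3 CPM in Fas+/+ and from 173.9 to 251.5 CPM in Fas-/- libraries (log2 difference -0.88 ± 0.21, SE, adjusted p = 0.156). Of 18 genes responsive to estrogen receptors or xenobiotics, which could mark the tamoxifen given to 1 group only, 9 were higher and 9 lower, with none called by edgeR. Nrip1, a corepressor of nuclear receptors, was called higher by all 3 alternative fits.

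**Figure D4:**
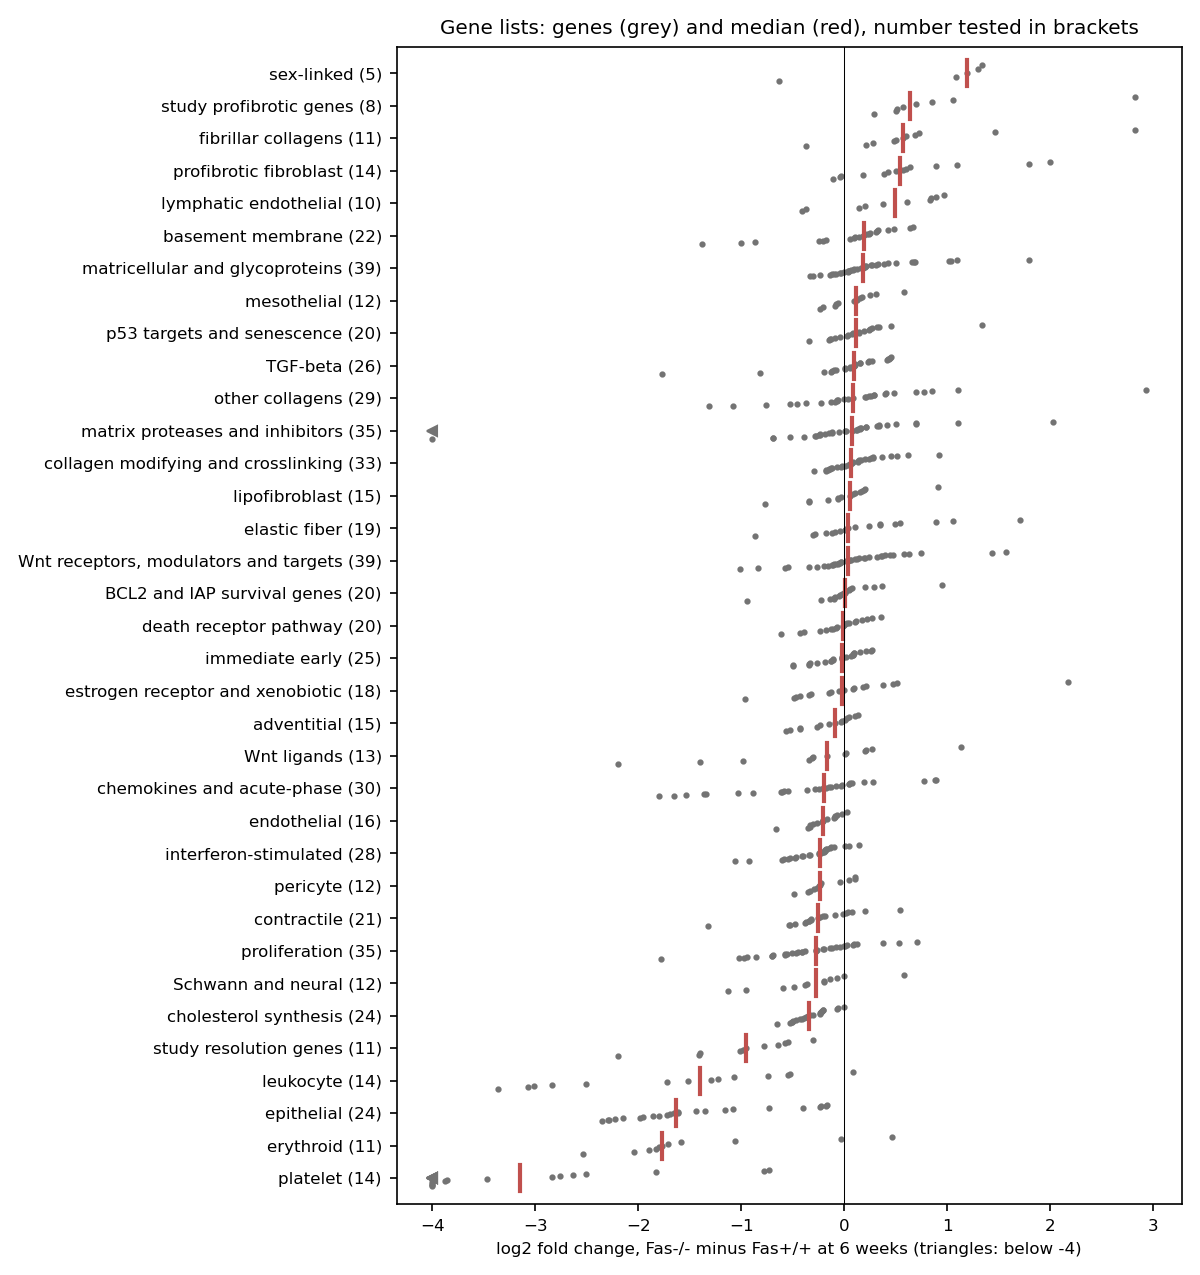
Log2 fold change of Fas-/- against Fas+/+ cells at 6 weeks (horizontal axis) for the genes of 35 lists, with the number tested in brackets. Each grey point is a gene, the red bar is the median of the list and triangles stand for values below -4. Lists of matrix and profibrotic genes have medians of 0.54, 0.58 and 0.64 (profibrotic fibroblast, fibrillar collagens and the matrix genes of the study), the other matrix lists have medians of 0.04 to 0.19, and the lists of epithelial, leukocyte, erythroid and platelet markers have medians of -1.40 or lower.

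Markers of other cell types also differed in level between the groups. The 24 epithelial markers all had a lower fitted level in Fas-/- cells (median -1.63), compared with 50.3% of all genes tested. None was called by edgeR, 1 by DESeq2, 4 by limma voom and 2 without the 2 libraries of week 3. These 3 fits called 0.761%, 0.888% and 0.664% of all genes lower. The summed level of the markers ran from 867 to 2130 CPM in Fas+/+ and from 316 to 673 CPM in Fas-/- libraries, without overlap. Ager, the receptor for advanced glycation end products and a marker of type I alveolar epithelium, was at 558, 1030, 615 and 429 CPM in Fas+/+ and at 77.5, 266, 321 and 133 CPM in Fas-/- libraries (log2 difference -1.72 ± 0.52, SE, adjusted p = 0.259 by edgeR). The naive mean of Ager was 59.9 CPM. Without Fas+/+ replicate 2, the highest library, the median of the epithelial list was -0.13, that of the leukocyte list described next -0.13, and that of the platelet list -1.80.

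Platelet markers were lower in 14 of 14 cases (median -3.15), with Gp5 called, and ran from 39.7 to 173 CPM in Fas+/+ and from 22.9 to 40.9 CPM in Fas-/- libraries. Erythroid markers were lower in 10 of 11 cases (median -1.77) and leukocyte markers in 13 of 14 (median -1.40), none called by edgeR and with no overlap of the summed levels. DESeq2 called 3 erythroid, 3 leukocyte and 8 platelet markers lower, and limma voom 3, 1 and 3, against 0.761% and 0.888% of all genes. Endothelial markers were lower in 15 of 16 cases (median -0.21), with ranges of 993 to 3250 CPM in Fas+/+ and 383 to 4610 CPM in Fas-/- libraries that overlapped. Replicate 2 was the highest library of its group for the endothelial markers in both genotypes. Without Fas-/- replicate 2 the median of the endothelial list was -1.80 and that of the platelet list -5.57. The endothelial median turned to 0.17 without Fas+/+ replicate 2 and to 0.17, 0.03 and 0.10 without Fas-/- replicates 1, 3 and 4, so its direction is not given by these libraries. Without both of these, an alternative chosen after seeing the data, Gp5 alone was called. The summed epithelial level did not overlap between the genotypes, so a fit that adjusts for the epithelial markers cannot fully separate them from genotype. With the mean level of the epithelial markers as a covariate no gene was called. The median of the 8 matrix genes named by the study was then 0.15 and that of the fibrillar collagens 0.07. With Ddx3y as a covariate Stox2 alone was called, and these medians were 0.32 and 0.16. The part of other cell types and of sex in the differences was not tested.

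**Figure D5:**
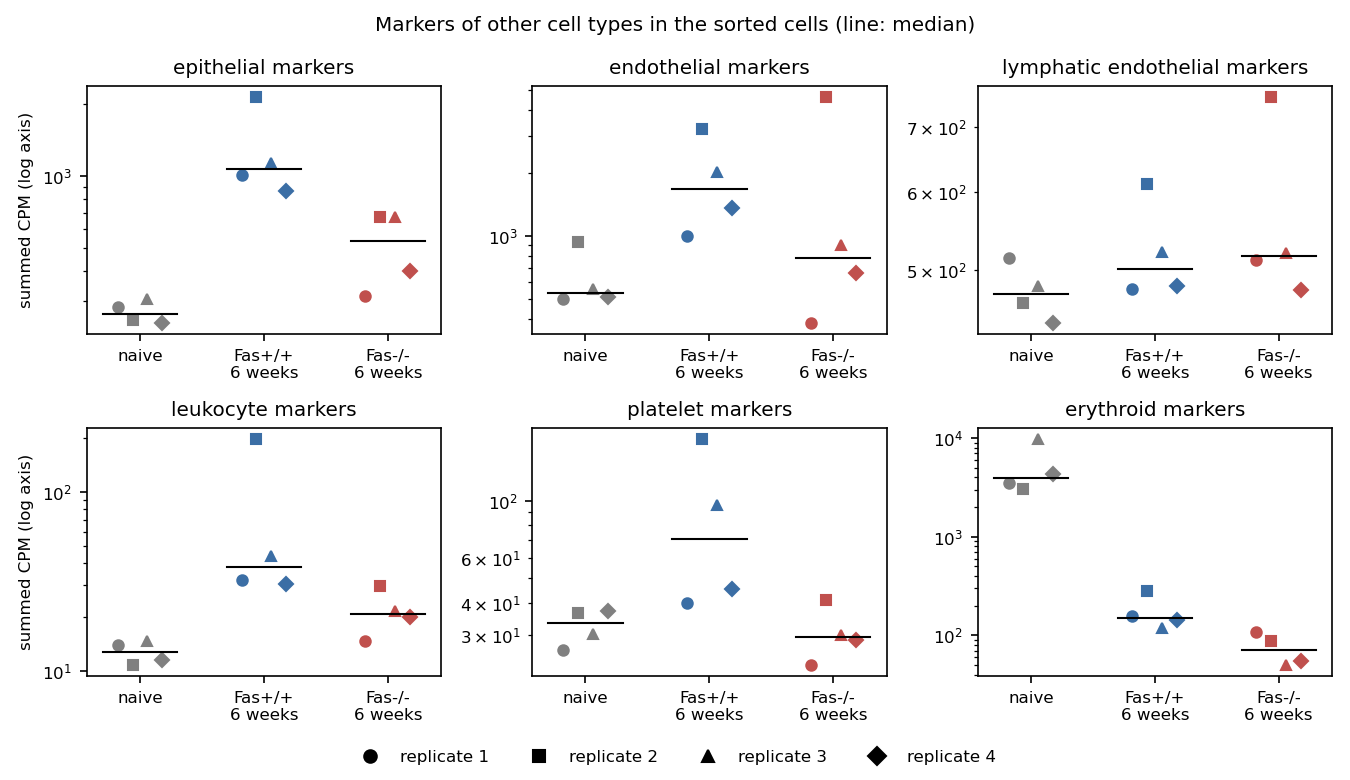
Summed level (CPM, log axis) of the markers of 6 other cell types in each library of naive mice (grey) and of Fas+/+ (blue) and Fas-/- mice (red) at 6 weeks, with lines at the group medians and shapes for replicates. Epithelial, leukocyte and erythroid sums do not overlap between the genotypes, and replicate 2 is the highest for the endothelial markers in both. Of the 14 leukocyte markers 1, Csf1r, does not overlap by itself.

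The single-cell libraries of week 6, 1 per genotype, show which cells carried the transcripts. After filtering, 3240 Fas+/+ and 2944 Fas-/- cells were kept, with medians of 7150 and 8680 UMIs (unique molecular identifiers, which count captured transcripts). The 2 libraries shared 231 barcodes, of 3675 and 3399 listed. The study's figure legend states that mice were pooled for each group. With 1 library per genotype there is no test between genotypes, and intervals (95%) cover counting error only. Cells with a UMI of Epcam were 27 Fas+/+ cells (0.833%, Clopper-Pearson interval 0.55% to 1.21%) and 24 Fas-/- cells (0.815%, 0.523% to 1.21%). They held 0.985% and 0.886% of all UMIs. Cells with a UMI of Pecam1 were 44.6% of Fas+/+ and 12.6% of Fas-/- cells, a difference in makeup that touches every ratio between these libraries. No doublet caller was run on them. The sort excluded doublets before the cells were loaded, and the upper limit of 7500 genes was the study's filter for possible doublets. Doublets formed during loading were not tested for. Free RNA can place UMIs in cells that do not express a gene, and its part was not tested.

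The cells that held the UMIs of the lower and of the higher bulk genes are described without a test. Of the 68 genes lower under all 3 alternative fits, 62 had at least 20 UMIs in the Fas+/+ library, and a median of 31.9% of their UMIs lay in the cells with a UMI of Epcam. For 39 of them this share was over 20%. Of the 36 higher genes 35 had enough UMIs, their median share was 0.168%, and none was over 20%. In the Fas-/- library the medians were 40.7% and 0.247%. For the called genes in the Fas+/+ library, the share in cells with Epcam was 40.4% for Tmem37 and 16.7% for Abca5, but 1.13% for Slc25a25, 0.154% for Stox2, 0.155% for Hmcn1 and 0 for Phex and Gp5. For Ager it was 76.2%, for Sema3e 62.5% and for Wnt7a 76.9%, the last of only 26 UMIs. Of the other genes that the study names as higher in Fas+/+ cells, it was 80.6% for Wnt3a (36 UMIs), 42.4% for Erbb3, 40.0% for Epb41l4b and 26.4% for Wnt10b. For Fzd5, Itgb3, Nrg1, Wnt4, Sost and Rspo4 it was 7.85% or less. All 50 UMIs of Gp5 in the Fas+/+ library came from 10 cells.

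Directions in the single-cell libraries were compared with bulk for genes with at least 20 UMIs in both. Of the called genes 7 qualified and 4 had the bulk direction, 3 of them with an interval that leaves out a ratio of 1. Of the 30 genes first by p, 15 in each direction with the called genes among them, 26 qualified and 11 had the bulk direction, 7 with intervals apart from 1, while 8 were opposite with intervals apart from 1. In cells with no UMI of Ptprc, Pecam1 or Epcam, 5 of 6 called genes and 14 of 22 of these genes had the bulk direction. Of these, 4 and 10 had intervals apart from 1, while 1 and 3 were opposite with intervals apart from 1. Zswim6 was not matched by symbol in these matrices. Phex had 664 UMIs in the Fas+/+ and 944 in the Fas-/- library, and scaled to the library totals a ratio of 1.48 (1.34 to 1.63). Slc25a25 had a ratio of 0.809 (0.745 to 0.878) and Gp5 of 0.416 (0.235 to 0.711). Hmcn1 went against the bulk direction, with 8385 and 6001 UMIs and a ratio of 0.744 (0.720 to 0.769). Tmem37 had a ratio of 1.12 (0.966 to 1.29), which was 0.462 (0.348 to 0.612) in the 1765 and 2549 cells with no UMI of Ptprc, Pecam1 or Epcam. In those cells Phex was at 1.19 (1.07 to 1.32), Slc25a25 at 0.787 (0.715 to 0.865) and Abca5 at 0.812 (0.711 to 0.926). Stox2 was there at 1.05 (0.961 to 1.15), an interval that holds 1. Hmcn1 remained against the bulk direction there, at 0.833 (0.801 to 0.866). Over all cells, Ager, Sema3e, Wnt7a, Itgb6 and Igfbp2, all lower in bulk, were not lower in the Fas-/- library. Their ratios were 1.02 (0.98 to 1.06), 1.14 (0.986 to 1.31), 1.24 (0.712 to 2.17), 1.9 (1.54 to 2.35) and 1.18 (1.12 to 1.25). Cldn18 was lower, at 0.861 (0.788 to 0.941). In cells with none of the 3 markers, Ager was at 0.679, Sema3e at 0.705, Igfbp2 at 0.536 and Itgb6 at 0.873 (0.539 to 1.42).

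Of the 8 matrix genes named by the study 5 had the bulk direction, all with intervals apart from 1, and 3 the opposite direction with intervals apart from 1. In cells with none of the 3 sort markers 2 had the bulk direction, Eln and Col6a1, and 6 the opposite, all with intervals apart from 1. Eln had a ratio of 1.29 (1.27 to 1.30) over all cells and of 1.02 (1.01 to 1.03) in cells with none of the 3 sort markers. Col1a1 had ratios of 1.17 (1.16 to 1.18) and 0.953 (0.945 to 0.960), on either side of 1. Col11a1 was lower in the Fas-/- library, with 621 and 300 UMIs (ratio 0.502, 0.436 to 0.577). Of the 11 other genes 7 had the bulk direction, 3 with intervals apart from 1, among them Wnt10b at 0.418 (0.274 to 0.626). In cells with none of the sort markers 9 of 9 that qualified had it, 6 with intervals apart from 1. Intervals held 1 for Rspo4 at 0.998 (0.617 to 1.62), Itgb3 at 0.991 (0.816 to 1.21) and Nrg1 at 0.916 (0.76 to 1.10). Leaving out the shared barcodes gave ratios of 1.28 for Eln, 1.18 for Col1a1, 1.48 for Phex and 0.480 for Wnt10b.

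The genotype difference at 6 weeks was last set against that at 3 weeks, in libraries that the 2 comparisons do not share. The interaction passed the test for 1 gene, Nav2 (0.00634% of genes tested), which encodes a neuron navigator protein of the cytoskeleton. Its means were 57.8 ± 4.65 CPM in Fas+/+ and 84.8 ± 6.55 CPM in Fas-/- cells at 3 weeks and 79.4 ± 7.13 and 67.2 ± 4.52 CPM at 6 weeks (SD, n = 4). The difference changed by -0.79 ± 0.11 (SE, adjusted p = 0.0269 by edgeR), from 0.55 at 3 weeks to -0.24 at 6 weeks. Nav2 was no longer called in 8 of the 16 fits that left out 1 library of week 3 or week 6, in which its change ran from -0.85 to -0.74, and these were the fits without Fas+/+ replicate 2 or 3 or Fas-/- replicate 1 or 3 of week 3, and without Fas+/+ replicate 2 or 3 or Fas-/- replicate 2 or 4 of week 6. DESeq2 called 102 genes for the interaction and limma voom 747, Nav2 among both. At an unadjusted p of 0.05 or less the interaction held 1210 genes (7.67%). None of the 8 genes called at 6 weeks was called for the interaction, with adjusted p from 0.0802 for Gp5 to 0.961 for Phex.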

How the data were processed

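Bulk counts were taken as deposited: per the labels and methods, the authors made stranded poly(A) libraries, aligned reads to GRCm38 with HISAT2 and deposited raw HTSeq counts per gene; a strand setting was not given in the sources used here. The authors' normalized table was not used. Of 47729 genes, 15773 passed filterByExpr (minimum count 10) and were tested with edgeR 4.0.16 (R 4.3.3), TMM normalization, over all 20 bulk libraries in 5 groups. CPM use TMM library sizes, and a gene was called at a Benjamini-Hochberg adjusted p of 0.05 or less. Alternatives used DESeq2 1.42.0 and limma 3.58.1, and the fits were tested on simulated data. In 3 simulations with 200 changed genes, the false share of calls averaged 4.03% for edgeR, 12.5% for DESeq2 and 2.78% for limma voom. DESeq2 thus made more false calls than its threshold of 0.05 allows in these simulations. Genes were drawn independently and with the same spread in every library, so the shares may differ in the real libraries. The single-cell matrices hold UMI counts deposited by the authors from Cell Ranger 3.0.2. A cell was kept if 200 to 7500 genes were detected and mitochondrial UMIs did not exceed 20% (scipy 1.17.1). Samples were grouped by label alone. Named genes were those called, the next by p up to 15 in each direction, the 19 genes of the study, Fas, and 3 per list; 2 of them are not reported here. Members and lists were chosen with earlier results of these data known. Replicates differed beyond counting error (chi-square per gene 11.4 to 47.4), against 1 for counting error alone. Globin genes share near-identical copies, so their counts are uncertain.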

Additional observations from a re-analysis of the deposited data

Results flagged for a closer look

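Of 120 groups of 4 libraries tested by Dixon's test, 10 held a library far from the others, and chance flags about 1 in 20 groups. In Fas+/+ replicate 2, Zswim6 was at 25.2 CPM (others 22.5 to 22.6), Epb41l4b at 17.6 CPM (others 8.61 to 9.97) and the leukocyte markers summed to 197 CPM (others 30.5 to 43.6). In Fas+/+ replicate 4, Hmcn1 was at 397 CPM (others 317 to 325) and Col11a1 at 6.70 CPM (others 0.893 to 1.56). In Fas-/- replicate 2, Gp5 was at 0.410 CPM (others 0 to 0.0564), Cd226 at 0.0512 CPM (others 0), the endothelial markers summed to 4610 CPM (others 383 to 904) and the lymphatic endothelial markers to 751 CPM (others 477 to 520). In Fas-/- replicate 4, Nrg1, a ligand of ErbB receptors, was at 4.08 CPM (others 5.12 to 5.22).

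Nav2 differed in its genotype effect between the 2 times, by -0.79 on the log2 scale in the interaction test (adjusted p = 0.0269 by edgeR, and not called in 8 of 16 fits without 1 library).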

How the results depend on the processing

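The counts of called genes at 6 weeks, 4 higher and 4 lower, were recomputed under 19 alternatives. RLE normalization gave 4 and 7, no filter 4 and 6, and at least 1 CPM in 4 libraries 5 and 7. DESeq2 gave 50 and 120, limma voom with quality weights 111 and 140, and edgeR on the 8 libraries alone 1 and 0. Leaving out single libraries of week 6 gave 0 to 2 higher and 0 to 19 lower. Among alternatives added after seeing the data, leaving out replicate 2 of both groups gave 0 and 1, leaving out the 2 libraries of week 3 gave 114 and 106, the epithelial mean as a covariate gave 0 and 0, and Ddx3y as a covariate 1 and 0. The interaction, 1 gene, gave 3 with no filter, 102 by DESeq2, 747 by limma voom, 0 to 162 without single libraries (162 without Fas+/+ replicate 1 and 29 without Fas-/- replicate 4 of week 3), 0 without both replicates 2, 392 without the 2 libraries of week 3, 0 with the epithelial mean and 13 with Ddx3y. The cause was not tested.

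With the replicate number as a block, 0 genes were higher and 0 lower at 6 weeks, and 3 were called for the interaction. Deviations of same-numbered libraries correlated by 0.19, 0.40, 0.01 and 0.18, not all over 0.1, so the numbers were not taken to pair the libraries.

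Among 131 genes 2481 log2 fold changes were recomputed, of which 8 reversed, and none of these belonged to a called gene. Leaving out single libraries gave -2.61 (without Fas-/- replicate 2) to 0.0278 (without Fas+/+ replicate 2) for Vwf, from -0.66, and -1.58 to 0.0477, by the same libraries, for Plvap, from -0.35. With the epithelial mean as a covariate, Vwf went to 0.59, Plvap to 0.58, Esam to 0.45, Uty to -1.29, Eif2s3y to -1.56 and Ddx3y to -1.97. The sign also changed in 43 of 665 recomputed list medians, in 12 of 35 lists, among them the endothelial, lymphatic endothelial, death receptor and sex-linked lists. Of the 665 medians 41 moved by more than the spread between replicates.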
